A study of Mus musculus with 7 samples.

Results

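Adult mouse liver was compared with adult brain and skeletal muscle by the signals of gene expression arrays, and the genes described are those whose signal in Liver was at least 2-fold above the higher of Brain and Sk_muscle, or at least 2-fold below the lower of both. Of 18194 genes measured, 1402 were higher in Liver (7.71%) and 761 were lower (4.18%). Male ICR mice older than 9 weeks gave the tissues Liver, Brain and Sk_muscle (skeletal muscle), with no treatment or transgene named. The same series holds SK7_ESC, a male mouse ES cell line that carries a green fluorescent reporter driven by the Pdx1 promoter, and Ect, End and Pme, the ectoderm, endoderm and paraxial mesoderm made from it in culture, which are used here for background. Each of these 7 conditions was measured on 1 array, so that no spread between replicates can be given, no test was possible, and every difference below is described by its size alone. A signal is the linear brightness of a probe set after the authors scaled each array to an average of 100. Signals under 50 were taken as background and raised to 50 before a ratio was formed, and a ratio against such a signal is a lower bound. Signals of different genes come from different probes and are no ranking of their RNA amounts. In whole tissue, fewer cells of a type and less RNA per cell cannot be told apart.

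Most of the liver's mass is hepatocytes, epithelial cells that secrete the greater part of the plasma proteins, build lipoproteins and bile acids, release glucose during fasting, turn ammonia into urea and oxidise or conjugate foreign compounds. Brain and skeletal muscle consume the fuels that the liver releases, and both consist largely of cells with electrically excitable membranes. The liver also holds resident macrophages (Kupffer cells), fenestrated endothelium, vitamin A storing stellate cells and bile duct cells.

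The Liver array carried the genes of hepatocytes. All 9 measured hepatocyte markers were higher in Liver, and Ahsg, which encodes the plasma protein fetuin-A, had a signal of 11252 in Liver, 0.5 in Brain and 27.1 in Sk_muscle. Summed over the 9 markers, the signal was 102325 in Liver, 4258 in Brain and 695 in Sk_muscle. The sum in Brain came almost wholly from Ttr, which encodes the thyroxine carrier transthyretin and is also made by the choroid plexus, with 12719 in Liver, 4212 in Brain and 77.3 in Sk_muscle. All 4 probe sets of Ttr were higher in Liver, but the gene was not called after quantile normalization. Of the 5 measured neuron markers, Syt1 was above background in Liver, at 78.9 against 3260 in Brain, and the other 4 lay between 7.0 and 20.3. All 4 glia markers and all 6 muscle fibre markers were under background in Liver. The defining markers of the other tissues were thus at or near background in this array.

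Among resident cells of the liver, 3 of 9 Kupffer cell markers and 4 of 8 markers of sinusoidal endothelium were higher in Liver. Vsig4, a complement receptor of Kupffer cells, had 590.1 in Liver, 9.6 in Brain and 23.2 in Sk_muscle. Csf1r and C1qa, which microglia also express, were not apart, at 857.0 and 537.8 in Liver against 899.1 and 538.2 in Brain. Clec4g, a lectin gene of sinusoidal endothelium, had 1059 in Liver, 8.6 in Brain and 1.2 in Sk_muscle. Colec11 and Ecm1 were the 2 of 7 stellate cell markers that were higher, while Dcn, a matrix proteoglycan gene, had 2149 in Liver and 6504 in Sk_muscle. None of 5 bile duct markers, 3 blood markers or 6 lymphocyte markers was called (0 in each), and Ptprc was the brightest lymphocyte marker in Liver at 95.0. Of 5 exocrine pancreas markers, Cela1 was higher, with 454.7 in Liver, 39.6 in Brain and 7.8 in Sk_muscle, and the other 4 were under background in the 3 tissues.

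The genes higher in Liver covered a wide range of sizes. Their median ratio to the higher of Brain and Sk_muscle was 4.71, with 416 genes at 10-fold or more and 70 at 100-fold or more, up to at least 328-fold for Fgb. For 582 of the 1402 genes (41.5%), both Brain and Sk_muscle were under background, so that the ratio is a lower bound. The genes lower in Liver lay closer to the other tissues, with a median ratio of 2.83, 37 genes at 10-fold or more and a largest ratio of 44.9 for Pfn2. Liver itself was under background for 316 of the 761 lower genes. Against Brain alone, 2189 genes were higher in Liver and 2844 lower (12% and 15.6%), and against Sk_muscle alone 1927 were higher and 2198 lower (10.6% and 12.1%). Just inside the size rule were Saal1, at 116.6 in Liver and 58.3 in Sk_muscle, and Lsm14b, at 91.2 in Liver and 182.5 in Sk_muscle. Just outside it were Nudt14, at 99.9 in Liver, with Brain and Sk_muscle not above background, and Gatad2b, at 59.2 in Liver and 118.3 in Sk_muscle.

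**Figure D1:**
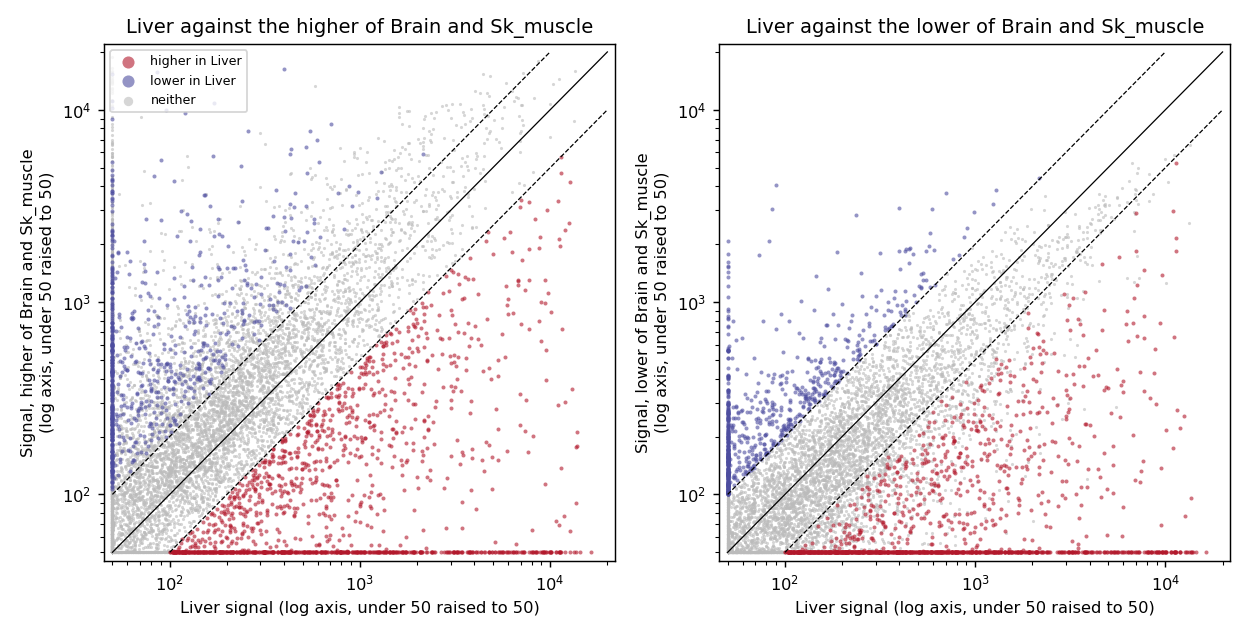
Each point is 1 of 18194 genes, with its Liver signal on the horizontal axis and the higher (left panel) or lower (right panel) signal of Brain and Sk_muscle on the vertical axis, both on log axes with signals under 50 raised to 50. Solid lines mark equal signals and dashed lines a 2-fold ratio; of the 1402 genes higher in Liver, 582 lie on the bottom edge of the left panel, out to 16411, and the 761 lower genes end at a ratio of 44.9.

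The brightest of the genes higher in Liver encode proteins of the blood plasma. Fgb, the fibrinogen beta chain gene, had 16411 in Liver, 0.5 in Brain and 35.5 in Sk_muscle, and Fga, the alpha chain gene, had 13716 in Liver, 6.9 in Brain and 90.3 in Sk_muscle. Pzp, a protease inhibitor gene of the alpha-2-macroglobulin family, had 14414 in Liver, 2.2 in Brain and 43.8 in Sk_muscle. Serpina1c, an alpha-1-antitrypsin gene, had 13931 in Liver, 21.6 in Brain and 210.5 in Sk_muscle. For these 4 genes the signals in Brain and Sk_muscle were 210.5 or less, and the ratio was at least 328 for Fgb, at least 288 for Pzp, 152 for Fga and 66.2 for Serpina1c. Alb, which encodes albumin, had 11977 in Liver, 9.2 in Brain and 303.9 in Sk_muscle, a ratio of 39.4. Of the 100 genes with the highest signals in Liver, 88 were higher there than in both other tissues, 0 were lower and 12 were neither. The 12 include Mt1, a metallothionein gene, with 13314 in Liver, 2581 in Brain and 8728 in Sk_muscle (its other probe set was higher in Liver), and Fth1, the ferritin heavy chain gene, with 9990 in Liver, 5542 in Brain and 10734 in Sk_muscle.

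Not all bright liver genes were low elsewhere. Gstp1, a glutathione transferase gene, had 11433 in Liver, 2155 in Brain and 4702 in Sk_muscle, a ratio of 2.43, and was not called at 3-fold. Apoe, the apolipoprotein E gene, which astrocytes also express, had 12013 in Liver, 2381 in Brain and 220.7 in Sk_muscle. Mgst1, a microsomal glutathione transferase gene, had 12561 in Liver, 254.5 in Brain and 2567 in Sk_muscle. It was not called without probe sets that may share sequence, with other genes or between transcripts of the same gene. These 3 genes and Ttr have the smallest ratios of the 20 brightest, from 2.43 to 5.05.

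**Figure D2:**
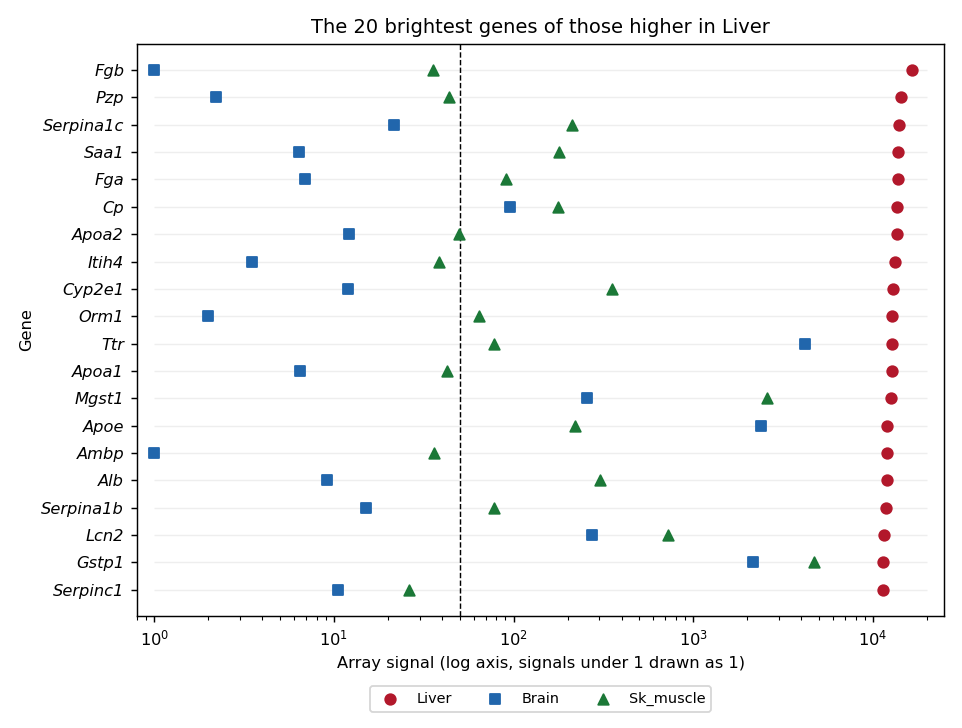
Signals of the 20 brightest genes higher in Liver (log axis, signals under 1 drawn as 1) in Liver, Brain and Sk_muscle, each from 1 array. The dashed line marks 50, the background. Liver signals lie between 11427 and 16411, and those of Ttr, Apoe and Gstp1 in Brain are between 2155 and 4212.

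Between Brain and Sk_muscle, the brightest liver genes were more often above background in Sk_muscle. Of the 100 brightest genes higher in Liver, 38 were above background in Brain and 52 in Sk_muscle, and the median signal was 13.7 in Brain and 67.0 in Sk_muscle. The signal in Sk_muscle exceeded that in Brain for 74.0% of them, against 48% of the 11230 genes above background in at least 1 of the 3 tissues. Examples are Hp, the haptoglobin gene, with 8958 in Liver, 1.6 in Brain and 630.5 in Sk_muscle, and Adh1, an alcohol dehydrogenase gene, with 8721 in Liver, 7.6 in Brain and 798.7 in Sk_muscle. Whether other cells or RNA contributed to these signals in Sk_muscle was not tested.

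The promoters of 4 genes higher in Liver and of Pfn2, the gene with the largest ratio among those lower in Liver, are printed from 250 bases before to 50 bases after the RefSeq transcription start (build GRCm38.p6, strand of the gene). They are single examples of base composition and show the letters that match short motifs of liver factors. They were picked by hand and are no sample of their sets. HNF1, HNF4 and C/EBP matches are more frequent among the 4 of genes higher in Liver than in the sets described below. Capitals mark matches on either strand to GTTAAT (part of HNF1 sites), CAAAGTC (a core of HNF4 sites), TTGCNNAA (a core of C/EBP sites, N being any base), TGTTTAC (a core of FOXA sites) and TATAAA (the letters of the TATA box). Overlapping matches run together. Matches were taken at any place in the window, so that a TATAAA match need not lie where a TATA box does.
Alb: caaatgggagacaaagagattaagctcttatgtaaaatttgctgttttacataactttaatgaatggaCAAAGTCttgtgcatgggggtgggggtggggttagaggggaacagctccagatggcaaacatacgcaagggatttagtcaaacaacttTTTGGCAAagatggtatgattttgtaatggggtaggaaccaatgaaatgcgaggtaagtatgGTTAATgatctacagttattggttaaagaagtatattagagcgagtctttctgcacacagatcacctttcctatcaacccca
Fgb: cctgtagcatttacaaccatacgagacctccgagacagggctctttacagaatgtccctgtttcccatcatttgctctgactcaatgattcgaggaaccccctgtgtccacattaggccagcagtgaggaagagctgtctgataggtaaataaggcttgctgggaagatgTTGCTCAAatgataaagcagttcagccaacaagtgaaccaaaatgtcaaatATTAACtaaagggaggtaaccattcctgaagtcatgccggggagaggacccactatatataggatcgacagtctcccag
Ahsg: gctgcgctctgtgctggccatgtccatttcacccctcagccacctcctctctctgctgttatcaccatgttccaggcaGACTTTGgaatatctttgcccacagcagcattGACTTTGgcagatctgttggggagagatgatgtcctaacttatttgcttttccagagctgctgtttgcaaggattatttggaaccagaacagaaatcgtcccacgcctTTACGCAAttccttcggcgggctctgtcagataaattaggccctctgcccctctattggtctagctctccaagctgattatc
Vtn: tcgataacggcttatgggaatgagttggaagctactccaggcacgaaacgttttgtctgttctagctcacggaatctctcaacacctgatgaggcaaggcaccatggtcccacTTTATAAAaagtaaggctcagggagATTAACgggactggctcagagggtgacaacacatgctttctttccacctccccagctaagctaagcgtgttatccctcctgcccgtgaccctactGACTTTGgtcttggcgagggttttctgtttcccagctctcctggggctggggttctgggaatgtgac
Pfn2: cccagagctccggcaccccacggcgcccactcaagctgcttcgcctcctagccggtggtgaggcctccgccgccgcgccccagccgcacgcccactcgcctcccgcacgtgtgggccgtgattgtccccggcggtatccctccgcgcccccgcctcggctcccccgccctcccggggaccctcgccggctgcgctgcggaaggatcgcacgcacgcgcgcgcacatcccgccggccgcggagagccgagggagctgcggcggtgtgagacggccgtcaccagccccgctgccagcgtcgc
The Alb promoter (chr5:90460620-90460919, plus strand) held an HNF1 motif, an HNF4 core and a C/EBP core. That of Fgb (chr3:83049814-83050113, minus strand) held an HNF1 motif and a C/EBP core, and that of Ahsg (chr16:22891765-22892064, plus strand) held HNF4 and C/EBP cores. That of Vtn, the vitronectin gene (chr11:78498870-78499169, plus strand), held an HNF1 motif, an HNF4 core and a TATAAA match. The Pfn2 promoter (chr3:57847708-57848007, minus strand) held none of the 5 motifs. It had 45 CpG dinucleotides and 77.7% G and C, against 3 CpG in Alb, 5 in Fgb, 6 in Ahsg and 9 in Vtn, where G and C made up between 40.0% and 51.7%.

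A contrast in the same direction, but smaller, was seen over all genes with 1 promoter in the RefSeq table. These were 919 of the genes higher in Liver, 446 of the lower ones and 7113 of the genes above background in at least 1 of the 3 tissues. The median share of G and C was 57.7% for higher genes and 53.0% for those higher by 10-fold or more. It was 63.3% for lower genes and 61.3% for all genes above background. Observed over expected CpG had a median of 0.60 for higher genes, 0.30 for the 279 that were higher by 10-fold or more, 0.79 for lower genes and 0.78 for all genes above background. Lower genes were thus close to all genes above background, and Pfn2, at 1.03, lay above the upper quartile of lower genes (0.92). A value under 0.4 was found in 33.6% of promoters of higher genes and 64.5% of those higher by 10-fold or more, against 8.74% for lower genes and 14.0% for all genes above background. It was found in 29.1% of promoters of all measured genes, close to the share of the higher genes. Over the 22856 promoters of all genes that have 1 in the table, the share was 52.1%. The HNF1 motif occurred in 17.9% of promoters of genes higher by 10-fold or more, 3.81% of lower genes, 4.29% of genes above background and 7.35% of the 22856 promoters of all genes that have 1 in the table. The HNF4 core occurred in 10.8% of promoters of the genes higher by 10-fold or more and in 4.3% of all 22856, and the C/EBP core in 21.1% and 10.8%. The FOXA core occurred in 5.38% and 3.57% and TATAAA in 21.1% and 14.8% of the same sets. Over the 919 promoters of all higher genes, the HNF1 motif occurred in 8.05%, the HNF4 core in 5.66% and the C/EBP core in 13.6%. The FOXA core occurred there in 3.37% and TATAAA in 13.7%. These shares lay nearer to those of the 22856 promoters than to those of genes higher by 10-fold or more. Among genes above background, the HNF4 core occurred in 3.54%, the C/EBP core in 8.24%, the FOXA core in 2.56% and TATAAA in 7.86%. A match to these letters is a description of the window and says nothing of binding, and the sets differ in base composition as given above.

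**Figure D3:**
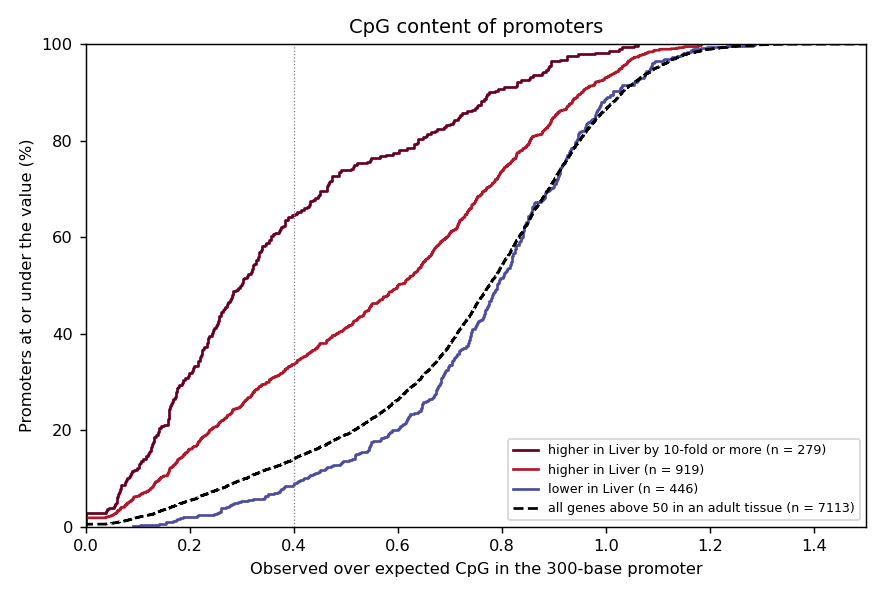
Cumulative share of promoters (vertical axis, %) at or under a ratio of observed to expected CpG in the 300-base window (horizontal axis), for genes higher in Liver by 10-fold or more, all genes higher in Liver, genes lower in Liver and all genes above 50 in an adult tissue. At the dotted line of 0.4 the curves stand at 64.5%, 33.6%, 8.74% and 14.0%.

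Genes of 34 function lists were then read against the background of 7.71% higher and 4.18% lower. Over the lists, 582 genes were measured, of which 324 were higher in Liver, 42 lower and 216 neither. The median ratio of Liver to the higher of Brain and Sk_muscle was 1.0 over all 18194 genes. The lists hold genes picked for their known place in liver, brain or muscle, with earlier results of these data known. Their shares therefore describe these genes, are no sample of the genome and are no test against that background.

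**Figure D4:**
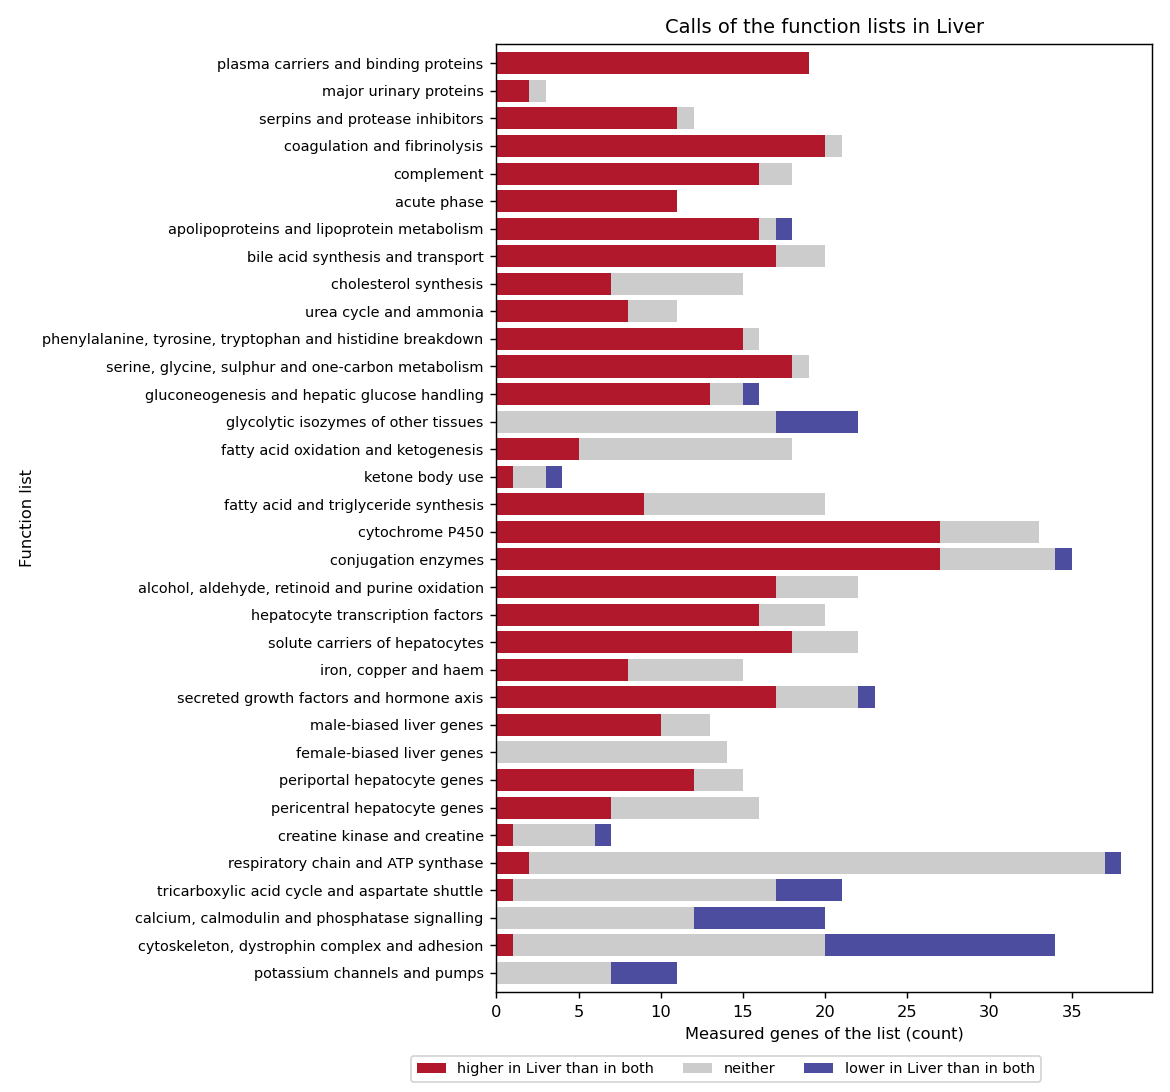
Number of measured genes (horizontal axis) of each function list that were higher in Liver than in both Brain and Sk_muscle, neither, or lower than in both, with 1 array per tissue. Plasma carriers stand at 19 of 19 higher, female-biased liver genes at 0 of 14, and calcium signalling genes at 8 of 20 lower.

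Secreted plasma proteins made up the fullest lists. All 19 plasma carriers and binding proteins were higher in Liver, with a median ratio of 83.3. The largest ratios among them were those of Itih4, at least 266, and Ambp, at least 240, which encode parts of the inter-alpha-trypsin inhibitor family. Of 12 serpins and other protease inhibitors, 11 were higher, among them Serpinc1, the antithrombin gene, with 11427 in Liver, 10.6 in Brain and 26.2 in Sk_muscle. A2m was not called, with 52.1 in Liver, 46.9 in Brain and 9.6 in Sk_muscle. Of 21 genes of coagulation and fibrinolysis, 20 were higher. Plg, the plasminogen gene, had 11162 in Liver, 4.7 in Brain and 2.9 in Sk_muscle, and F2, the prothrombin gene, had 8056 in Liver, 11 in Brain and 15.2 in Sk_muscle. The remaining gene was F8, which endothelium makes, at 95.7 in Liver, 16.9 in Brain and 10.4 in Sk_muscle. Major urinary proteins, pheromone carriers of mice, were measured with 3 of 9 listed genes, of which Mup3 was at least 191-fold and Mup10 at least 13.1-fold higher, and Mup5 was at 55.0 in Liver. The Mup3 value comes from a probe set that may share sequence with other genes, and is uncertain to that extent. Its other probe set, at 17.3 in Liver, was not called.

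Complement and acute phase genes were nearly all higher. Of 18 complement genes 16 were higher, with a median ratio of 57.5. Cfi, the complement factor I gene, had 8895 in Liver, 13.8 in Brain and 28.4 in Sk_muscle, and C8a, which encodes a chain of the membrane attack complex, had 8174 in Liver, 10.7 in Brain and 8.8 in Sk_muscle. The exceptions were C1qa and Cfp, which leukocytes make. Cfp had 26.3 in Liver, 51.4 in Brain and 23.0 in Sk_muscle, but its other probe set, with 124.8 in Liver, 21.0 in Brain and 14.6 in Sk_muscle, was higher in Liver. All 11 acute phase genes, whose transcripts increase in inflammation, were higher, with a median ratio of 154. Saa1, a serum amyloid A gene, had 13821 in Liver, 6.4 in Brain and 179.5 in Sk_muscle. Apcs, the serum amyloid P gene, had 11197 in Liver, 2.0 in Brain and 29.6 in Sk_muscle. Lcn2, an iron siderophore binding protein gene, had 11550 in Liver, 273.9 in Brain and 720.9 in Sk_muscle. Nothing in the labels or methods tells the inflammatory state of the donor.

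Lipoprotein genes were higher with few exceptions. Of 18 genes 16 were higher in Liver, and Apoa2 and Apoa1, genes of the main proteins of high-density lipoprotein, were at least 272-fold and 254-fold higher. Apob, the protein core gene of very low-density lipoprotein, had 10705 in Liver, 2.6 in Brain and 24.7 in Sk_muscle, and Apoc3, which encodes an inhibitor of lipoprotein clearance, had 10107 in Liver, 26.1 in Brain and 22.2 in Sk_muscle. Lpl, the lipoprotein lipase gene of tissues that take up fatty acids, was lower, with 171.7 in Liver, 488.6 in Brain and 10794 in Sk_muscle, and was not called at 3-fold. Pltp, a phospholipid transfer protein gene, was not called, at 176.0 in Liver, 350.3 in Brain and 268.4 in Sk_muscle.

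Of 20 genes of bile acid synthesis and transport 17 were higher, with a median ratio of 13.9. Slc27a5, which activates bile acids for conjugation, had 4748 in Liver, 12.5 in Brain and 5.7 in Sk_muscle. Slc10a1, the sodium-dependent bile acid carrier gene of the sinusoidal membrane, had 3192 in Liver, 2.3 in Brain and 13.9 in Sk_muscle. Cyp7a1, the rate-limiting enzyme of the classical pathway, was at 70.4 in Liver, 7.9 in Brain and 1.7 in Sk_muscle, a ratio of at least 1.41, and was not called. The phospholipid exporter gene Abcb4 had 548.8 in Liver, 28.0 in Brain and 473.1 in Sk_muscle. Cholesterol synthesis was less apart, with 7 of 15 genes higher, 0 lower and a median ratio of 1.89. Ebp, a sterol isomerase gene, had the largest ratio, with 3447 in Liver, 166.8 in Brain and 148.4 in Sk_muscle, and Sqle, the squalene epoxidase gene, had 133.4 in Liver, 285.3 in Brain and 25 in Sk_muscle.

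Enzymes of nitrogen and amino acid metabolism formed a further group. In the urea cycle and ammonia list 8 of 11 genes were higher. Arg1, the liver arginase gene, had 9260 in Liver, 0.3 in Brain and 9.0 in Sk_muscle, and Cps1, which starts the cycle in mitochondria, had 7220 in Liver, 13.9 in Brain and 20.7 in Sk_muscle. Otc, the next enzyme, was at least 65.3-fold higher. Ass1, which joins citrulline and aspartate, had 33.2 in Liver with the 1 probe set annotated to it alone. A further probe set that it shares with another symbol was not used, so that its level is not settled here. Glul, the glutamine synthetase gene, was not called, at 2311 in Liver, 3254 in Brain and 3026 in Sk_muscle. For the breakdown of phenylalanine, tyrosine, tryptophan and histidine, 15 of 16 genes were higher. Hpd and Tat, consecutive enzymes of tyrosine breakdown, were at least 191-fold and 159-fold higher, and Kmo, of the kynurenine pathway, at least 39.5-fold. Kynu, of the same pathway, was not called with the probe set used, at 22.5 in Liver, but its other probe set was, with 697.9 in Liver, 0.6 in Brain and 1.4 in Sk_muscle. Of 19 genes of serine, glycine, sulphur and one-carbon metabolism, 18 were higher. Bhmt, which remethylates homocysteine with betaine, had 11301 in Liver, 7.1 in Brain and 23.8 in Sk_muscle, and Mat1a, the liver form of methionine adenosyltransferase, had 6001 in Liver, 2.2 in Brain and 4.0 in Sk_muscle. Gcsh of the glycine cleavage system was the exception, at 1251 in Liver, 547.9 in Brain and 923.4 in Sk_muscle.

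Genes of glucose release and of glucose use were called in opposite directions. Of 16 genes of gluconeogenesis and hepatic glucose handling 13 were higher in Liver, with a median ratio of 9.47. Fbp1, fructose bisphosphatase, had 10068 in Liver, 7.2 in Brain and 24.2 in Sk_muscle. Pck1, which makes phosphoenolpyruvate, had 1501 in Liver, 8.3 in Brain and 6.7 in Sk_muscle, and Slc2a2, the glucose carrier of hepatocytes, had 1197 in Liver, 1.1 in Brain and 0.5 in Sk_muscle. Got1, the cytosolic aspartate aminotransferase gene, was lower, with 606.9 in Liver, 1866 in Brain and 5327 in Sk_muscle. Of 22 measured glycolytic isozymes and glucose carriers of other tissues, 0 were higher, 5 were lower and 17 were neither. Pkm, pyruvate kinase of muscle and brain, had 40.9 in Liver, 1545 in Brain and 4872 in Sk_muscle. Ldhb, the heart form of lactate dehydrogenase, had 73.4 in Liver, 1756 in Brain and 2085 in Sk_muscle, and all 4 of its probe sets were called lower. Aldoa, the muscle aldolase gene, had 397.8 in Liver, 3070 in Brain and 16224 in Sk_muscle. Pklr, the liver form of pyruvate kinase, was at 104.1 in Liver and at least 2.08-fold higher, close to the limit of the size rule and called with 1 of its 3 probe sets.

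The ketone and fatty acid genes differed by step. Oxct1, the enzyme with which tissues use ketone bodies, had 43.0 in Liver, 1531 in Brain and 5323 in Sk_muscle, at least 30.6-fold lower in Liver, and all 4 of its probe sets pointed the same way. Slc16a7, a monocarboxylate carrier gene, was at least 7.73-fold higher in Liver. Of 18 genes of fatty acid oxidation and ketogenesis 5 were higher and 0 lower, and the median ratio was 1.23. The largest ratios were those of 3 peroxisomal enzymes, Acaa1b at least 66.7-fold, Hacl1 42.4-fold and Ehhadh at least 9.57-fold. The mitochondrial enzyme Acadm had 3126 in Liver, 315.1 in Brain and 6217 in Sk_muscle, and of the list Cpt1a, the liver form of carnitine palmitoyltransferase, was 8.98-fold higher. Of 20 genes of fatty acid and triglyceride synthesis 9 were higher, among them Fabp1, the liver fatty acid binding protein gene (at least 203-fold), and Elovl2, an elongase of polyunsaturated fatty acids (23.0-fold). Fasn, fatty acid synthase, was not called, at 650.3 in Liver, 431.6 in Brain and 56.2 in Sk_muscle.

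Enzymes that act on foreign compounds and steroids were higher in large number. Of 33 genes of the cytochrome P450 family and its partner Cyb5a, 27 were higher in Liver, 0 were lower, and 6 were under background in all 3 tissues with the probe set used. Cyp2e1, which oxidises ethanol, had 12960 in Liver, 12 in Brain and 351.5 in Sk_muscle. Cyp2c70, which makes the muricholic acids of mice, had 11288 in Liver, 11 in Brain and 29.2 in Sk_muscle, and Cyp3a11 had 9999 in Liver, 8.4 in Brain and 14.4 in Sk_muscle. The P450 members called higher lay between 4.55-fold and 226-fold, lower bounds for most. Of 35 conjugation enzymes 27 were higher, with the glucuronosyltransferase genes Ugt2b36 and Ugt2b5 at least 125-fold and 119-fold higher. Gstm5, a glutathione transferase gene, was lower, with 315.6 in Liver, 1877 in Brain and 1796 in Sk_muscle. Of 22 genes of alcohol, aldehyde, retinoid and purine oxidation 17 were higher, with Uox, which degrades urate in mice, at least 132-fold and Ces1c, a plasma carboxylesterase gene, at least 113-fold higher. Close relatives of the P450 and transferase families share sequence, and single members are uncertain to that extent.

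Transcription factors of hepatocytes set the expression of many of the genes above in mice. Of 20 factors 16 were higher in Liver, with a median ratio of 4.05. Hnf4a, a nuclear receptor, had 1054 in Liver, 5.3 in Brain and 13.4 in Sk_muscle, Cebpa had 993.3 in Liver, 33.5 in Brain and 47.1 in Sk_muscle, and Creb3l3, a membrane-bound factor of the secretory pathway, had 1349 in Liver, 18.5 in Brain and 12.1 in Sk_muscle. Cebpb, a factor of the acute phase response, was not called, at 2021 in Liver, 72.6 in Brain and 1409 in Sk_muscle, although its other probe set was higher in Liver. Some of these factors also mark endoderm and were brighter in the End culture than in Liver. Foxa2 had 182.9 in Liver and 958.2 in End, Foxa1 208.3 in Liver and 828.1 in End, and Gata6 196.6 in Liver and 999.7 in End. Hnf4a was at 86.8 in End and Cebpa at 5.5, under background.

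Carriers and hormones followed the same direction. Of 22 solute carriers and channels of hepatocytes 18 were higher, led by Slc27a2, which takes up and activates long-chain fatty acids (at least 143-fold), and Aqp9, a glycerol channel (at least 31.1-fold). In the iron, copper and haem list 8 of 15 were higher. Hamp, which encodes the iron hormone hepcidin, had 8373 in Liver, 12 in Brain and 13.3 in Sk_muscle, and Tfr2, a sensor of iron-loaded transferrin, had 2066 in Liver, 36.1 in Brain and 39.1 in Sk_muscle. Hjv, a co-receptor upstream of Hamp, was not called, at 357.5 in Liver, 9.8 in Brain and 2119 in Sk_muscle. Of 23 growth factors, binding proteins and receptors of the hormone axis 17 were higher. Igf1, the circulating growth factor, was 8.07-fold higher, with 3595 in Liver, 109.8 in Brain and 445.6 in Sk_muscle. Igfbp1, an insulin-regulated binding protein gene, had 5585 in Liver, 0.6 in Brain and 7.7 in Sk_muscle. Igf2, an imprinted gene that is silenced in mouse liver after birth, was lower, with 6.0 in Liver, 153.2 in Brain and 246.3 in Sk_muscle, and had 2384 in the Pme culture. It was not called with a floor of 100 or with the geometric mean of its 2 probe sets.

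Genes known to differ between male and female mouse liver were counted next, all donors being male. Of 13 genes known to be higher in male liver 10 were higher in Liver than in both other tissues, among them Cyp2d9 (at least 121-fold) and Cyp4a12a (at least 62.4-fold). Of 14 genes known to be higher in female liver 0 were higher, 12 were under background in Liver, and the brightest was Cux2, at 75.3 in Liver, 76.9 in Brain and 90.1 in Sk_muscle. Genes of both zones of the liver lobule were seen. Of 15 periportal genes 12 were higher, led by Arg1 and Cyp2f2 at least 185-fold and 180-fold, and of 16 pericentral genes 7 were higher, led by Rgn, the regucalcin gene (at least 99.0-fold), and Cyp2e1 (36.9-fold). The pericentral genes that were not called include Glul, Oat (2563 in Sk_muscle) and Slc1a2, the main glutamate carrier of astrocytes, at 118.2 in Liver and 3012 in Brain.

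Of the 761 genes lower in Liver, those with the largest ratios are described first. Pfn2, a profilin gene of neurons and muscle that regulates actin, had 90.2 in Liver, 4046 in Brain and 5511 in Sk_muscle, a ratio of 44.9, and its 3 probe sets were all called lower. Cpe, a carboxypeptidase gene of peptide hormone processing, had 10.6 in Liver, 4326 in Brain and 2087 in Sk_muscle, and was not called with the geometric mean of its 2 probe sets. Rbfox1, a splicing regulator of neurons and muscle, had 2.5 in Liver, 1621 in Brain and 2069 in Sk_muscle, and 3 of its 4 probe sets were called lower. Mef2c, a transcription factor of both tissues, had 12.9 in Liver, 1429 in Brain and 1749 in Sk_muscle, and its 5 probe sets were all called lower. Eef1a2, the elongation factor isoform of neurons and muscle, had 82.7 in Liver, 2089 in Brain and 4553 in Sk_muscle. Cacna2d1, a calcium channel subunit gene, had 10 in Liver, 1207 in Brain and 1328 in Sk_muscle, and 3 of its 5 probe sets were called lower. For these 6 genes the signals in Brain and Sk_muscle lay within 2.2-fold of each other. Over all 761 lower genes, 133 were at least 2-fold higher in Brain than in Sk_muscle and 142 at least 2-fold higher in Sk_muscle than in Brain. Of the 575 lower genes with several probe sets, 80 had all of them called lower, and 0 had one called higher. Of the 721 genes higher in Liver with several probe sets, 262 had all called higher, and 2 had one called lower.

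**Figure D5:**
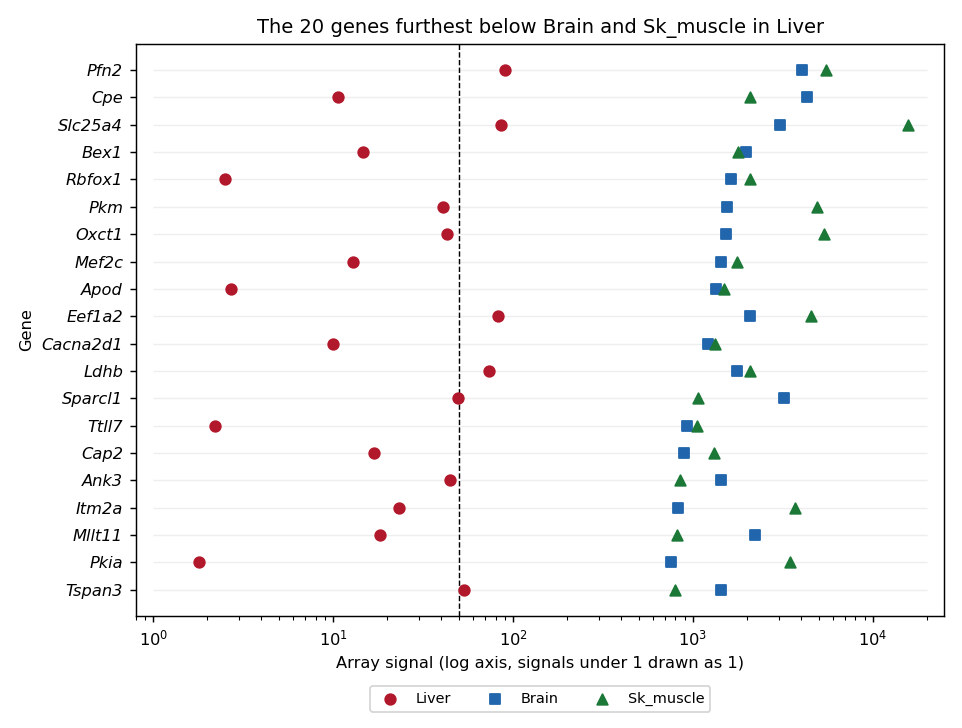
Signals of the 20 genes with the largest ratios below Brain and Sk_muscle (log axis) in Liver, Brain and Sk_muscle, each from 1 array. The dashed line marks 50, the background. Liver signals lie between 1.8 and 90.2, and those of Brain and Sk_muscle between 754.4 and 15668.

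By function, 14 of 34 genes of the cytoskeleton, dystrophin complex and adhesion were lower in Liver and 1 was higher. Ank3, an ankyrin gene of axon initial segments, had 44.9 in Liver, 1434 in Brain and 842.3 in Sk_muscle, with 4 of its 6 probe sets called lower. Tuba1a, a tubulin gene of postmitotic neurons, had 105.7 in Liver, 4263 in Brain and 798.5 in Sk_muscle. Sntb1, a syntrophin gene, went the other way, with 386.7 in Liver, 23.5 in Brain and 17.1 in Sk_muscle. Of 20 genes of calcium, calmodulin and phosphatase signalling 8 were lower and 0 higher. Camk2g, a calmodulin-dependent kinase gene, had 44.6 in Liver, 806.9 in Brain and 739.2 in Sk_muscle. Ppp3cb, a calcineurin gene, had 188.2 in Liver, 2200 in Brain and 1815 in Sk_muscle, and 2 of its 5 probe sets were called lower. Of 11 ion channels and pump subunits 4 were lower, with Atp1b1, the beta subunit gene of the sodium pump, at 237.5 in Liver, 5119 in Brain and 2841 in Sk_muscle (not called without probe sets that may share sequence). Slc6a8, the creatine carrier gene, was at least 5.14-fold lower, while Gamt, which makes creatine, was 4.6-fold higher.

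Most listed genes of the respiratory chain and of the tricarboxylic acid cycle were not called. Of 38 genes of the respiratory chain and ATP synthase 35 were neither higher nor lower in Liver, and the median ratio to the higher of both tissues was 0.334, since most were brightest in Sk_muscle. Slc25a4, the ADP/ATP carrier of muscle and brain, had 85.3 in Liver, 3038 in Brain and 15668 in Sk_muscle, and Slc25a5, a second carrier of this kind, had 5692 in Liver, 2154 in Brain and 1715 in Sk_muscle. Cox6a1, the liver form of a cytochrome oxidase subunit, had 7040 in Liver, 3380 in Brain and 1845 in Sk_muscle. Slc25a5 and Cox6a1 were not called after quantile normalization, and Slc25a4 was not called without probe sets that may share sequence. Of 21 genes of the tricarboxylic acid cycle and aspartate shuttle 4 were lower and 1 was higher. Slc25a12, the aspartate carrier of excitable tissues, had 163.7 in Liver, 760.6 in Brain and 3153 in Sk_muscle, with 1 of its 3 probe sets called lower. Its homologue Slc25a13 had 1125 in Liver, 23.0 in Brain and 14.1 in Sk_muscle. Suclg2, the GTP-forming subunit gene of succinyl-CoA ligase, had 2717 in Liver, 158.9 in Brain and 643.5 in Sk_muscle, and has no probe set left without those that may share sequence. Of the 4 lower genes, 2 were called with equal array medians and 2 with a 3-fold rule.

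The 4 cultures served as a further background. Of the 1402 genes higher in Liver, 37.7% were above background in no culture and 41.0% in all 4, against 22.0% and 58.1% of all genes above background in an adult tissue. Of the 761 genes lower in Liver, 10.5% were above background in no culture and 69.1% in all 4. Of the higher genes, 1019 (72.7%) were also at least 2-fold above every culture, against 13.9% of all genes above background in an adult tissue. Of the lower genes, 260 (34.2%) were at least 2-fold below every culture as well, against 13.6% of all genes above background. The Liver signal that set the calls also enters these shares against the cultures. Shares above those of all genes therefore follow at least in part from the selection. Bex1, a gene lower in Liver, had 14.7 in Liver, 1983 in Brain and 1780 in Sk_muscle, and between 3427 and 5447 in the cultures.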

How the data were processed

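Total RNA of the 7 samples was primed with oligo-dT, labelled with biotin and hybridised to Affymetrix Mouse Genome 430 2.0 arrays, 1 array per condition. The labels name an RNeasy kit for RNA isolation and the study's methods TRIzol. The intensity values used were deposited by the authors as linear signals, scaled so that the average signal of each array was 100. The sources used here do not give the summarisation algorithm, nor whether a tissue was pooled from several animals. Of 45101 probe sets, 34958 carried 1 gene symbol in the platform annotation, 932 several and 9211 none. Each of the 18194 genes took, of the probe sets annotated to it alone, the one brightest on average (mean log2 signal, 7 arrays), without regard to the group it was called in. Signals under 50 were raised to 50, and a gene was called by a ratio of at least 2. Without replicates no test was made, the number of arrays limits the precision, and the calls compare these arrays only.

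Members and gene lists were chosen with earlier results of these data known. Genes named were the 20 with the largest ratio and the 20 brightest in each direction, at most 4 genes per list by size of ratio, members that went against their list, and cell type markers, with predicted genes left out. Saal1, Lsm14b, Nudt14 and Gatad2b were named for their place at the size rule. Vtn, Mt1, Hp, Adh1, Sqle, Pklr, Acadm, Fasn, Foxa1, Foxa2, Gata6, Igf1, Cux2, Slc1a2 and Slc25a13 were chosen after their values were seen. Promoters came from RefSeq on build GRCm38.p6, matched by gene identifier, for genes with 1 promoter. The calling script was tested on simulated data. Alternatives changed the floor (20 or 100), the scaling, the probe set of a gene and the size rule (3-fold). Probe sets that may share sequence are those with names that end in _s_at, _x_at or _a_at. For _a_at the sharing is between transcripts of the same gene. Python 3.11.15 was used with numpy 2.4.6, pandas 2.3.3 and matplotlib 3.10.9.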

Additional observations from a re-analysis of the deposited data

Results flagged for a closer look

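Probe sets that no comparison above used also held signals higher in Liver than in Brain and Sk_muscle by the same size rule. Of the 932 probe sets annotated to several genes, 73 were higher in Liver (7.83%) and 23 were lower. Of the 9211 probe sets with no gene name here, 156 were higher (1.69%) and 74 were lower. No gene was named from either set.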

How the results depend on the processing

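The number of genes higher in Liver lay between 987 (3-fold rule) and 1662 (floor of 20) over the 8 alternatives, against 1402. The number lower was 1212 with a floor of 20, 462 with a floor of 100, 435 with probe sets of a gene averaged geometrically and 341 with a 3-fold rule, against 761. Quantile normalization gave 675 lower genes and equal array medians 582. Relative to the deposited scaling, these 2 scalings moved the log2 ratio of Liver to Brain by a median of 0.19 and 0.37 over 11230 genes. Higher genes made up between 57.8% (floor of 20) and 74.3% (3-fold rule) of the called, against 64.8%. Lrrfip1 was called higher, with 408.4 in Liver, 43.1 in Brain and 41.8 in Sk_muscle, but lower with the probe set that was brightest over the 3 adult arrays, with 27.9 in Liver, 124.4 in Brain and 305.8 in Sk_muscle. Genes named by rank that were not called under an alternative, beyond those given in the text, were Apod, Mllt11, Ppp1cb, Sparc, Tmsb4x, Mff, Tsc22d1, Ywhag, Cst3, Norad and Sptbn1. Without probe sets that may share sequence, 7 acute phase genes, 11 of the growth factor list and 4 pericentral genes were higher. Lower members of the glycolytic list were 8 with a floor of 20 and 2 without such probe sets. The counts without such probe sets rest on 16593 genes. List members left with no probe set, such as Lcn2, Ldhb and Aldoa, count there as not called although they were no longer measured. Lower members of the cytoskeleton list were 9 with a floor of 100, 7 with the geometric mean and 9 with a 3-fold rule. Cholesterol synthesis had 4 higher genes with the geometric mean and 3 with a 3-fold rule. Among other genes of the text, Colec11 and Otc were not called without probe sets that may share sequence, F8, Mup5, Cyp7a1 and Ptprc were called higher with a floor of 20, and Gata6 and Foxa2 were not called with a floor of 100. The cause was not tested. No paired analysis was possible because each condition has 1 array and the labels carry no replicate numbers. Signals near the floor limit the ratios to lower bounds.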
